A study of Mus musculus with 6 samples.

Results

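The contacts of promoters in mouse embryonic stem cells depleted of Ino80 were compared with those of Control cells. The cells were E14 (E14TG2a), a wild-type male stem cell line grown in serum and LIF. Control cells received esiRNA, a pool of short RNAs cut from a longer double strand, against the green fluorescent protein EGFP, and Ino80KD cells received esiRNA against Ino80. All were harvested 48 h after transfection. Each group had 2 libraries of promoter-capture Micro-C, in which micrococcal nuclease cuts fixed chromatin, nearby fragments are ligated and those at promoters, here called baits, are captured. Every row of these 4 libraries' loop lists was used, 73549 of 107701 loops in the series, together with all 34774 entries of the authors' deposited table for Ino80KD against Control, of 68017 entries in the deposited tables of the series. The labels put replicate 1 of both groups in batch 1, Control replicate 2 in batch 2 and Ino80KD replicate 2 in batch 3, so that only the replicates 1 can be compared within a batch, and among the replicates 2 batch and group cannot be told apart. Since no label says that the replicates were separate cultures, their spread may be technical. The depletion is transient, and no RNA was profiled, so neither its extent nor the identity of the cells by marker expression was checked. The read depth of each library is unknown.

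INO80 is an ATP-dependent chromatin remodeller built around the Ino80 ATPase. It slides and spaces nucleosomes, is linked to the turnover of the histone variant H2A.Z, and in mammals associates with the zinc finger protein YY1. In embryonic stem cells it is known to occupy promoters of pluripotency genes and to be needed for self-renewal. Promoters in these cells fall into a CG-rich class, which holds housekeeping and developmental genes, and a CG-poor class, which holds many tissue-restricted genes such as the odorant receptors.

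Promoters of both kinds were among the baits of the contacts with the lowest unadjusted p, and 4 are shown that were picked to span the range of CG numbers. Picked so, they are no evidence for an ordering by CG number. Among the same contacts, Spaca4 with 5 CG and Prtn3 with 4 CG were higher and Fmn2 with 17 CG was lower. Each is the RefSeq window from 250 bases before to 50 bases after a start site on GRCm38.p6, whose chromosomes are those of mm10, written 5′ to 3′ on the gene's strand with CG dinucleotides in capitals. The first pair belongs to baits with a higher contact after depletion, Bahd1 (chr2:118901365-118901664, plus strand, 45 CG), a heterochromatin protein gene, and Sfmbt2 (chr2:10372186-10372485, plus strand, 16 CG), a polycomb-group gene. The second pair belongs to baits with a lower contact, Dhrs2 (chr14:55221757-55222056, plus strand, 7 CG), a short-chain dehydrogenase gene, and the odorant receptor gene Olfr1134 (chr2:87658408-87658707, minus strand, 2 CG).
Bahd1: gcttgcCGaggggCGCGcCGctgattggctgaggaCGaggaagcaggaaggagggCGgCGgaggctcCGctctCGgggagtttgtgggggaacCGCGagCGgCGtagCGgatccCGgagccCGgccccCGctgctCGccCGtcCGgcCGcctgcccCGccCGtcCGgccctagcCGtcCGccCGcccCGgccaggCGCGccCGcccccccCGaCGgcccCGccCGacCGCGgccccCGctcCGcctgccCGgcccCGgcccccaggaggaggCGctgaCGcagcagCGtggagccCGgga
Sfmbt2: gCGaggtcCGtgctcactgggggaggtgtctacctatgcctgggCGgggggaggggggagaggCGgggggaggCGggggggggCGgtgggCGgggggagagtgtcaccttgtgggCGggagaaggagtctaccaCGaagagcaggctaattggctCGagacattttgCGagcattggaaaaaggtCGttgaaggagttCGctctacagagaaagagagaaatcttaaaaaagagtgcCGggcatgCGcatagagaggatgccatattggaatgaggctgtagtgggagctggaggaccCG
Dhrs2: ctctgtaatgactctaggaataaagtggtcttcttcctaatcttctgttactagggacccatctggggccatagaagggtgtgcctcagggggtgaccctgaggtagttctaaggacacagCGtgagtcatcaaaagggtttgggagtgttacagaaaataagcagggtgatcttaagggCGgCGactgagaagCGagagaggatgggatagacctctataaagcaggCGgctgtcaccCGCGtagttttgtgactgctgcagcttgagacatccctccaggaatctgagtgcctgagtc
Olfr1134: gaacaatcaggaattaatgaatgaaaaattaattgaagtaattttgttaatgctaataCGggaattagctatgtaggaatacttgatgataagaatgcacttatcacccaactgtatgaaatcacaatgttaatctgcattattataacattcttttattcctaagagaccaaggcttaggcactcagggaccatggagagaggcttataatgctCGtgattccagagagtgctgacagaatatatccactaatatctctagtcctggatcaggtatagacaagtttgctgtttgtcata

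The lists held similar numbers of loops in both groups. Leaving out 1 bait (chr2:98661117-98662976) that the authors' group lists lack and that had 1003 and 884 loops in Control and 1124 and 1155 in Ino80KD, the Control libraries listed 15322 and 14394 intrachromosomal loops and the Ino80KD libraries 14675 and 14113. The groups overlapped, and the exact two-sided permutation p was 0.667, where 2 libraries against 2 cannot give less than 0.33. Between chromosomes, 2720 and 2942 loops were listed in Control and 2812 and 2405 in Ino80KD, also with overlap. Loops had a score of at least 5 in every list, and 6.42% and 5.55% of those in Control and 6.15% and 5.81% of those in Ino80KD scored 10 or more. Scores were set by the authors and are read here within 1 list at a time. An unlisted loop may still exist below that minimum.

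A library's loops were found at similar shares in the other group and in its own replicate. With both ends within 5 kb, 49.3% of the loops of Control replicate 1 were also in Control replicate 2, 51.8% were in Ino80KD replicate 1 and 48.3% in Ino80KD replicate 2. Of the loops of Ino80KD replicate 1, 50.04% were in Ino80KD replicate 2, 53.9% in Control replicate 1 and 49.5% in Control replicate 2. Among the 903 loops of Ino80KD replicate 1 that scored 10 or more, 89.6% were in the other Ino80KD list, 91.4% in Control replicate 1 and 88.9% in Control replicate 2. At the score of 5 to 7, where most loops lie, the same shares were 41.7%, 45.6% and 41.1%.

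No single contact passed the adjustment for multiple tests. Of 34774 entries in the authors' deposited table, which covers 14183 baits, 0 passed an adjusted p of 0.05, and the lowest adjusted p was 1.00. With an unadjusted p below 0.05, 317 entries of the authors' deposited table were higher in Ino80KD (0.912% of all) and 133 were lower (0.382%), or 1.29% in either direction. Evenly spread p-values, as without any change, would put a share of 0.05 of all entries below this threshold, more than was seen. The number of such entries is therefore no sign of change, and the shares serve below only to set lists beside all entries. The software behind this test is not given in the sources at hand. The headers leave the sign of the fold changes unstated. Of the loops that both Ino80KD lists and neither Control list held, 85.6% of 865 with an entry had a log2 fold change above 0 in the authors' deposited table, against 11.1% of 946 loops listed in both Control libraries only, so values above 0 are read as higher after depletion.

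Contacts of baits in gene-rich surroundings had higher fold changes, and those of isolated baits lower ones. Each bait was given the number of protein-coding genes in the 1 Mb around it, and entries were put into 5 classes of about equal size. Around baits with 0 to 10 genes, the authors' deposited table had a median log2 fold change of -0.083 and 36.8% of 7575 entries were above 0. With 11 to 18 genes it was -0.024, with 19 to 29 genes 0.0062 and with 30 to 42 genes 0.052, all in the authors' deposited table. Around baits with 43 to 73 genes the authors' deposited table had a median of 0.083, with 61.6% of 6726 entries above 0. All entries of the authors' deposited table together had a median of 0.0023, with 50.4% above 0. The medians thus moved in 1 direction over the 5 classes, by an amount smaller than the median standard error of a single entry of 0.33 in the authors' deposited table. No p-value is given here, since entries share baits, regions and the same 4 libraries.

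**Figure D1:**
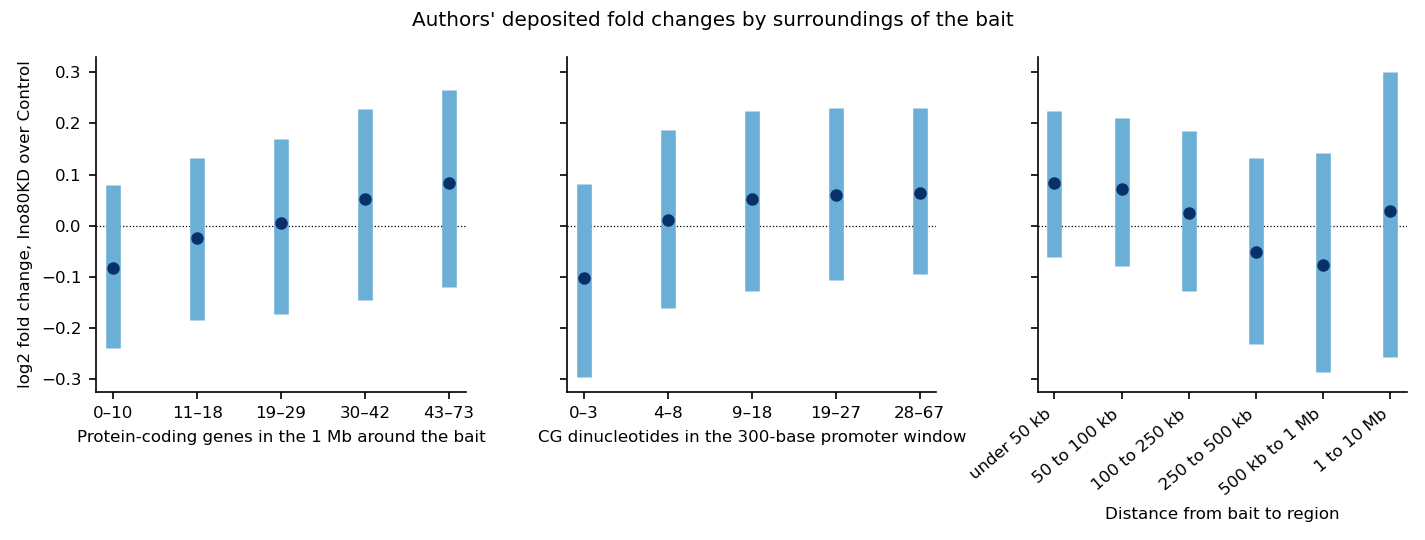
Log2 fold changes in the authors' deposited table, Ino80KD over Control, by the number of genes around the bait, the number of CG dinucleotides in its promoter window and the distance from bait to region. Dots are medians over entries and bars run from the lower to the upper quartile. The medians run from -0.083 to 0.083 from the gene-poorest to the gene-richest class and from 0.083 under 50 kb to -0.077 at 500 kb to 1 Mb, and the class over 10 Mb, at -0.19, is not drawn.

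The loop lists, which come from the same reads, differed in the same sense. Baits with 0 to 10 genes around them held 22.2% and 21.1% of intrachromosomal loops in Control and 20.8% and 19.1% in Ino80KD. Both Ino80KD libraries lay below both Control libraries, and the exact permutation p was 0.333. Baits with 43 to 73 genes held 18.7% and 19.6% in Control and 19.8% and 21.0% in Ino80KD, again without overlap (exact permutation p = 0.333). The Brg1KD libraries, set against the same Control libraries, held 18.7% and 19.7% in the gene-poorest class and 20.02% and 20.0% in the gene-richest, so both values lay on the same side of Control there too and the ordering is not shown to be particular to Ino80 depletion. Within batch 1 the ratio of Ino80KD to Control was 0.937 in the gene-poorest class and 1.06 in the gene-richest. The gap between the nearest libraries of the groups was smaller than the gap between the replicates of either group in both classes.

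Promoter sequence gave a second ordering. Among baits with a start site of a protein-coding gene, those with 0 to 3 CG dinucleotides in the promoter window had a median log2 fold change per bait of -0.12 in the authors' deposited table, with 32.0% of 2081 baits above 0. Those with 4 to 8 had -0.011, those with 9 to 18 had 0.034 and those with 19 to 27 had 0.049, each from the authors' deposited table. With 28 to 67 CG dinucleotides the authors' deposited table gave 0.054, and 60.9% of 1512 baits were above 0. The step from the CG-poorest class to the next was larger than all later steps together. Over all baits of the authors' deposited table, 48.5% were above 0 and 51.5% below.

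In the loop lists, baits of the CG-poorest class held 27.4% and 30.3% of the loops with a start site in Control and 26.2% and 23.7% in Ino80KD (exact permutation p = 0.333). Both Ino80KD libraries were below both Control libraries. The ratio was 0.866, and 0.958 within batch 1. Baits of the CG-richest class held 16.2% and 15.5% in Control and 16.5% and 17.7% in Ino80KD, likewise without overlap (exact permutation p = 0.333), and Control replicate 1 and Ino80KD replicate 1, which share a batch, differed least of the pairs across groups.

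Gene density and CG number did not stand for each other. In the gene-richest class, baits with 0 to 3 CG dinucleotides had a median of -0.099 over 429 baits of the authors' deposited table, while baits with 28 to 67 had 0.14 over 144 baits. In the gene-poorest class the same CG classes had -0.17 over 252 baits and -0.022 over 500 baits in the authors' deposited table. CG-poor baits were thus below 0 in both surroundings, and CG-rich baits were above 0 where genes were dense.

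Distance ordered the contacts as well. Entries under 50 kb had a median of 0.083, as a log2 value, in the authors' deposited table, those at 100 to 250 kb 0.026, those at 250 to 500 kb -0.051 and those at 500 kb to 1 Mb -0.077. At 1 to 10 Mb the authors' deposited table gave 0.029 over 1806 entries of low signal. Over 10 Mb it gave -0.19 over 238 entries, the lowest of the classes over entries. The values of these far classes depended on the unit. With 1 value per bait, the class at 1 to 10 Mb turned to -0.014 in the authors' deposited table. The class over 10 Mb was then at -0.047 over 69 baits, and the lowest was 500 kb to 1 Mb at -0.078. Within 100 to 250 kb, the gene-poorest baits were at -0.063 and the gene-richest 0.095 in the authors' deposited table. In the gene-richest class the authors' deposited table gave 0.14 under 100 kb and -0.024 at 250 kb to 1 Mb.

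The median span of the listed loops was 249 kb and 280 kb in Control and 242 kb and 245 kb in Ino80KD. The groups did not overlap (exact permutation p = 0.333), but Control replicate 2 stood apart from the other libraries, and the ratio of 0.920 became 0.978 without it and 0.971 within batch 1. Loops of 250 to 500 kb made up 27.6% and 28.4% of the lists in Control and 26.5% and 26.5% in Ino80KD. Loops of 500 kb to 1 Mb made up 13.5% and 16.0% against 13.2% and 13.3%. Loops whose other end was also a bait made up 4.38% and 3.47% in Control and 4.23% and 5.48% in Ino80KD, with overlap (exact permutation p = 0.667).

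**Figure D2:**
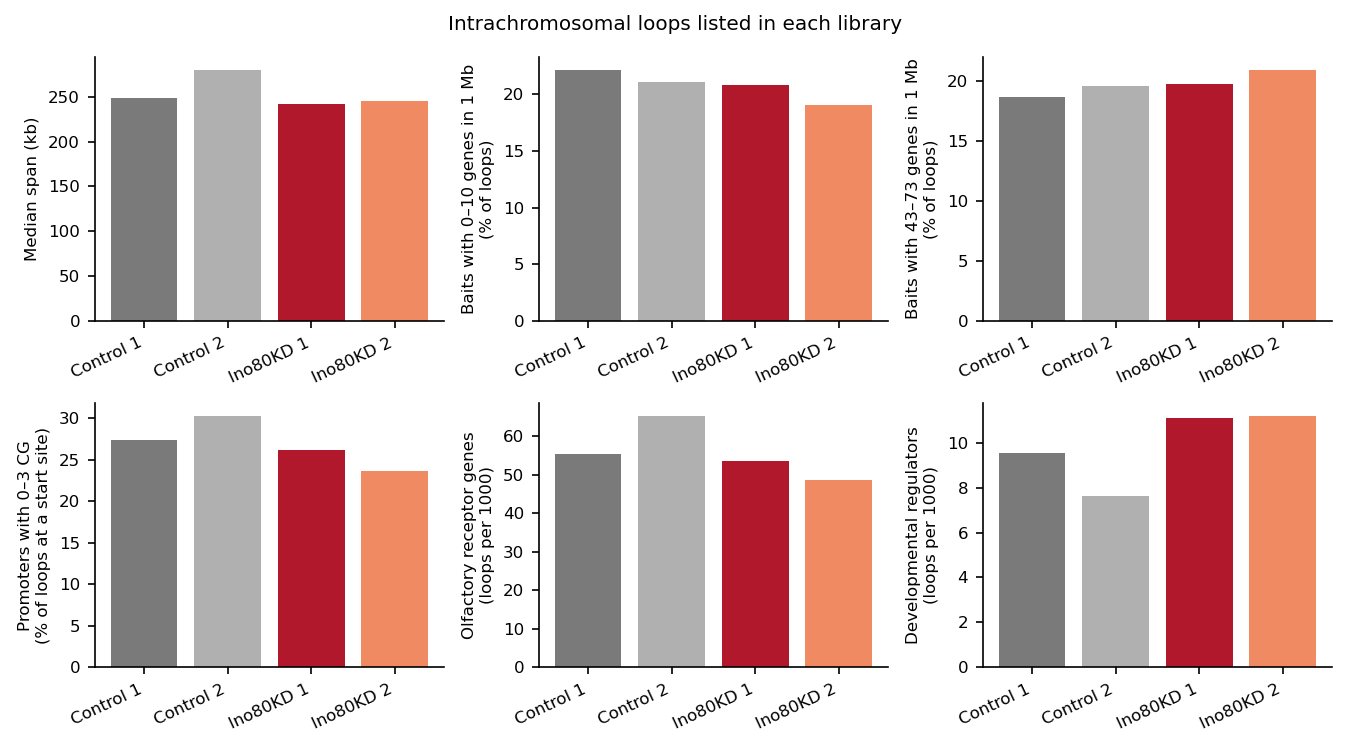
Values of each library over intrachromosomal loops, with bars from 0, for Control replicates 1 and 2 and Ino80KD replicates 1 and 2. In the panels for baits with 0 to 10 genes, for promoters with 0 to 3 CG and for odorant receptor genes both Ino80KD bars are below both Control bars, and for developmental regulators, at 11.1 and 11.2 against 9.53 and 7.64 per 1000, both are above.

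By chromosome, several gene-rich chromosomes had medians above 0 and several gene-poor ones below, but the order depended on the unit and had exceptions. Over entries, chromosome 17 had the highest median, 0.056 in the authors' deposited table, with a median of 35 genes around its baits, and was followed by chromosome 19 at 0.048 with 33 genes and chromosome 11 at 0.045 with 26. Chromosome 6 had the lowest over entries, -0.073 in the authors' deposited table with 15 genes, and the X chromosome was at -0.071 with 12 and chromosome 1 at -0.065 with 11. With 1 value per bait, chromosome 11 was highest at 0.054 and chromosome 8 next at 0.047, chromosome 17 was at 0.038, and the X chromosome was lowest at -0.090 in the authors' deposited table. Chromosome 12, the gene-poorest with 10 genes, was at -0.0031 over entries and -0.016 over baits of the authors' deposited table, close to 0. Chromosome 13, with 12 genes, was at 0.024 over entries and -0.044 over baits of the authors' deposited table, so its sign depended on the unit.

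At the scale of 1 Mb, the windows at the ends of the range held different kinds of genes. Of 551 windows with at least 8 baits, 273 had a median above 0 in the authors' deposited table. The windows named here were chosen by these values. The highest, at 18 to 19 Mb of chromosome 2, holds Bmi1, a subunit of polycomb repressive complex 1, with a median of 0.42 over 11 baits of the authors' deposited table. It had 14 and 3 loops in Control and 18 and 17 in Ino80KD, so that Control replicate 2 was low and the other libraries were close. A window of chromosome 17 at 29 to 30 Mb, with the cell cycle inhibitor gene Cdkn1a and the kinase gene Pim1, had 0.30 over 15 baits of the authors' deposited table, and 11 and 1 loops in Control against 12 and 14. The window at 45 to 46 Mb of chromosome 7, with the apoptosis gene Bax, the ferritin gene Ftl1 and the remodeller subunit gene Ruvbl2, had 53 of 58 baits above 0 in the authors' deposited table. Its loops numbered 64 and 65 in Control and 68 and 69 in Ino80KD.

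The lowest window, at 38 to 39 Mb of chromosome 17, holds odorant receptor genes such as Olfr129 to Olfr137 and had a median of -0.45 over 13 baits of the authors' deposited table, with 11 and 8 loops in Control and 3 and 3 in Ino80KD. A window of Mrgpr genes, sensory neuron receptors, at 48 to 49 Mb of chromosome 7 had -0.32 in the authors' deposited table, and 8 and 16 loops against 2 and 2. At 106 to 107 Mb of chromosome 7, another odorant receptor cluster, 0 of 13 baits were above 0 in the authors' deposited table, and loops numbered 13 and 9 against 8 and 5. In these 3 windows both Ino80KD libraries lay below both Control libraries, as in 5 of the 8 lowest windows. The groups were not apart in the windows of vomeronasal receptor genes at 23 to 24 Mb of chromosome 7, with 9 and 15 loops against 10 and 4, at 57 to 58 Mb of chromosome 6, with 5 and 14 against 4 and 5, and at 10 to 11 Mb of chromosome 7, with 4 and 7 against 0 and 6. Of the 8 highest windows, 7 had more loops in both Ino80KD libraries. The share of all 551 windows with groups apart was not counted. The windows were ranked by fold changes from the same reads, so these counts are no separate evidence.

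Genes were then taken by list. For each list, 1 value per bait was made from the authors' deposited table as the mean of its entries weighted by their inverse squared errors, whose error takes entries as independent and is too small where regions overlap. Loops were counted by bait, per 1000 intrachromosomal loops. The lists are described by counts and medians beside those of all baits. Their fold changes carry no test, and their loops per 1000 only the exact permutation test, which cannot give less than 0.33.

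Odorant receptor genes, the largest mouse gene family, are silent in stem cells and lie in gene-dense clusters with CG-poor promoters, here with medians of 37.5 genes in 1 Mb and 1 CG. Their baits had a median log2 fold change of -0.20 over baits of the authors' deposited table, with 191 of 803 above 0, beside -0.0086 and 48.5% for all baits. Of their 2051 entries in the authors' deposited table, 0 were higher with an unadjusted p below 0.05 and 21 were lower, where all entries had 0.912% higher and 0.382% lower. The lists held 848 and 938 loops at these genes in Control, or 55.3 and 65.2 per 1000, and 784 and 685 in Ino80KD, or 53.4 and 48.5 per 1000. The groups did not overlap (exact permutation p = 0.333), but the libraries of batch 1 had overlapping 95% Wilson intervals, 51.8 to 59.1 and 49.9 to 57.2 per 1000, which cover counting error only. The ratio of 0.846 was 0.921 without Control replicate 2 and 0.965 within batch 1. Both loops per bait and fold changes varied among members. Loops at Olfr993 numbered 2 and 8 in Control and 1 and 1 in Ino80KD, with -0.49 ± 0.10 (SE) in the authors' deposited table, and those at Olfr530 numbered 3 and 3 against 0 and 1, with -0.67 ± 0.18 in the authors' deposited table. Olfr738 went the other way, with 1 and 0 loops in Control against 3 and 3, and 0.36 ± 0.21 in the authors' deposited table.

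Vomeronasal receptor genes, which encode pheromone receptors, had a median log2 fold change of -0.19 over baits of the authors' deposited table, with 34 of 125 baits above 0. They had 6.98 and 10.8 loops per 1000 in Control and 6.13 and 6.73 in Ino80KD, without overlap and with a ratio of 0.878 within batch 1. Clustered genes expressed in the cell state like that of the 2-cell embryo had -0.31 over 23 baits of the authors' deposited table, 7 of them above 0, but that median was -0.18 over all entries, -0.15 over the entry with the highest signal per bait, -0.13 with start sites only and -0.096 above the median signal. They had 28 and 25 loops in Control against 21 and 16, with a ratio per 1000 of 0.783 within batch 1. Pramel34 gave 3 and 6 loops against 0 and 2, and -0.63 ± 0.16 in the authors' deposited table. Keratin genes, with medians of 53.5 genes in 1 Mb and 3 CG, had -0.086 in the authors' deposited table, with 34 of 88 baits above 0, which was -0.049 over all entries and -0.041 above the median signal, while their loops per 1000 overlapped, 11.9 and 14.4 against 13.4 and 12.5. The clustered protocadherin genes had -0.12 in the authors' deposited table with 17 of 58 baits above 0, which was -0.039 over the entry with the highest signal per bait and turned to 0.062 over entries with a signal above the median. Zinc finger genes had -0.036 in the authors' deposited table with 120 of 259 baits above 0, and turned to 0.0032 over all entries and 0.026 above the median signal, with 21.1 and 21.5 loops per 1000 in Control against 21.8 and 20.4.

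Developmental regulators, transcription factor and signalling genes that are mostly silent or poised in stem cells, had contacts with higher fold changes more often than lower ones. Of their 321 entries in the authors' deposited table, 15 were higher with an unadjusted p below 0.05 and 0 were lower, against 0.912% higher and 0.382% lower over all entries. Their median was 0.10 over 88 baits of the authors' deposited table, with 57 above 0, although their baits lie in gene-poor surroundings, with a median of 6 genes in 1 Mb and 24 CG. The lists held 146 and 110 loops in Control and 163 and 158 in Ino80KD, or 9.53 and 7.64 against 11.1 and 11.2 per 1000, without overlap (exact permutation p = 0.333) and with a ratio of 1.17 within batch 1. Irx3, a homeodomain factor gene, had 1 and 0 loops in Control and 2 and 2 in Ino80KD, with 0.51 ± 0.098 in the authors' deposited table. Lhx5, a LIM homeodomain factor gene, had 3 and 0 loops against 6 and 3, and 0.55 ± 0.17 in the authors' deposited table. Lhx9, of the same family, had 5 and 5 loops against 3 and 1, and -0.25 ± 0.10 in the authors' deposited table. Both directions therefore occurred within the list. Hox genes, by contrast with these regulators, had -0.018 in the authors' deposited table with 18 of 43 baits above 0, which ran from -0.035 to -0.064 over all entries, the strongest entry per bait, entries above the median signal and start sites only, and 5.29 and 5.49 loops per 1000 in Control against 6.41 and 5.46.

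Polycomb genes, which encode the complexes that keep such regulators silent, had 19 of 21 baits above 0 and a median of 0.22 over baits of the authors' deposited table. Of their 47 entries there, 5 were higher with an unadjusted p below 0.05 and 0 were lower, beside the same 0.912% and 0.382% over all entries of the authors' deposited table. They had 19 and 11 loops in Control and 22 and 30 in Ino80KD, without overlap and with a ratio per 1000 of 1.21 within batch 1. These counts include Sfmbt2, and without its loops the groups overlap, so the separation rests on that gene. Sfmbt2 had, over both its baits, 1 and 0 loops in Control and 5 and 6 in Ino80KD, and 1.09 ± 0.18 in the authors' deposited table. Bmi1 had 2 and 0 loops against 5 and 3, and 0.53 ± 0.20 in the authors' deposited table. Eed, a core subunit of polycomb repressive complex 2, had 2 and 1 loops against 0 and 0, and -0.16 ± 0.14 in the authors' deposited table. Trithorax genes, which encode activating counterparts, had 4 of 6 baits above 0 in the authors' deposited table, but their loops overlapped, 4 and 7 in Control and 3 and 7 in Ino80KD.

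Pluripotency genes had few loops, 12 and 10 in Control and 24 and 16 in Ino80KD, and both Ino80KD counts were above both Control counts (exact permutation p = 0.333 on loops per 1000). Within batch 1 the ratio was 2.09, with 95% Wilson intervals of 0.448 to 1.37 and 1.10 to 2.43 per 1000 that overlapped. Their median was 0.18 in the authors' deposited table, with 13 of 17 baits above 0. Pou5f1, which encodes the core factor OCT4, had 4 and 1 loops in Control and 3 and 5 in Ino80KD, with overlap, and 0.25 ± 0.11 in the authors' deposited table. Tbx3, a naive-state factor gene, had 0 and 0 loops against 0 and 1, and 0.84 ± 0.36 in the authors' deposited table. Dppa2, a gene of early embryos, had 1 and 2 loops against 0 and 0, and -0.38 ± 0.19 in the authors' deposited table. Markers of lineages that stem cell cultures can drift to were sparse, with 7 and 8 loops in Control and 9 and 5 in Ino80KD at primitive endoderm genes, 16 and 12 against 13 and 13 at trophoblast genes, and 10 and 3 against 6 and 2 at primed epiblast genes, all with overlap.

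The INO80 complex itself was covered in part. No bait was named Ino80, so contacts of the targeted gene were not measured here. The list had 11 and 10 loops in Control and 13 and 10 in Ino80KD, and 6 of 8 baits above 0 with a median of 0.18 over baits of the authors' deposited table. Ruvbl2, a AAA ATPase subunit that INO80 shares with other complexes, had 4 and 2 loops against 4 and 3, and 0.31 ± 0.13 in the authors' deposited table. Tfpt, an accessory subunit gene, had 3 and 3 loops against 7 and 4, and 0.21 ± 0.13 in the authors' deposited table. Nfrkb was at 0.25 ± 0.29, Ino80d at 0.11 ± 0.17, Ino80e at 0.16 ± 0.22, Ino80b at -0.25 ± 0.39 and Ino80c at -0.0052 ± 0.50 in the authors' deposited table, none farther from 0 than its error. Actl6a, Actr8 and Ruvbl1 had baits but no entry. Among genes of H2A.Z and its exchange factors, loops numbered 3 and 4 in Control and 7 and 4 in Ino80KD, and Srcap, the ATPase that deposits H2A.Z, had 1 and 2 against 4 and 3, with 0.13 ± 0.13 in the authors' deposited table.

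Subunits of esBAF, the other remodeller of the series, had 8 and 5 loops in Control and 7 and 6 in Ino80KD, and 6 of 9 baits above 0 in the authors' deposited table. Architecture genes, which encode CTCF, cohesin and Mediator, had 11 of 12 baits above 0 and a median of 0.18 over baits of the authors' deposited table, with 11 and 12 loops against 12 and 14. Smc3, a cohesin subunit gene, was at 0.58 ± 0.28 and Ctcf at 0.21 ± 0.15 in the authors' deposited table.

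Replication-dependent histone genes, packed in clusters with a median of 50 genes in 1 Mb, had 163 and 106 loops in Control and 167 and 190 in Ino80KD, and the libraries of batch 1 had a ratio of 1.07. Of their baits 27 of 34 were above 0 in the authors' deposited table, and 1 of 314 entries was higher with an unadjusted p below 0.05, where 0.912% of all entries were. The histone median was 0.17 over baits of the authors' deposited table and 0.091 over entries with a signal above the median. The bait of H2ac10 and H3c8 had more loops than most, 22 and 14 in Control and 19 and 27 in Ino80KD, with overlap. Cell cycle and p53 genes had 12 of 16 baits above 0 in the authors' deposited table. Cdkn1a, over 3 baits, had 4 and 0 loops against 6 and 5, and 0.33 ± 0.077 in the authors' deposited table, while Cdkn2a, another cell cycle inhibitor gene, had 11 and 7 loops against 6 and 3, and -0.18 ± 0.091 in the authors' deposited table. Of the metabolic lists, oxidative phosphorylation genes had a median of 0.030, or 0.073 above the median signal, with 29 of 47 baits above 0, glycolysis genes 0.12 with 12 of 15 and ribosomal protein genes 0.093 with 29 of 42, all in the authors' deposited table. The loops of these 3 lists overlapped between groups. DNA replication and repair genes had 0.047 with 13 of 21 baits above 0, and heat shock and stress genes 0.055, which ran from 0.0034 to 0.11 over the alternatives, with 10 of 13, both in the authors' deposited table.

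**Figure D3:**
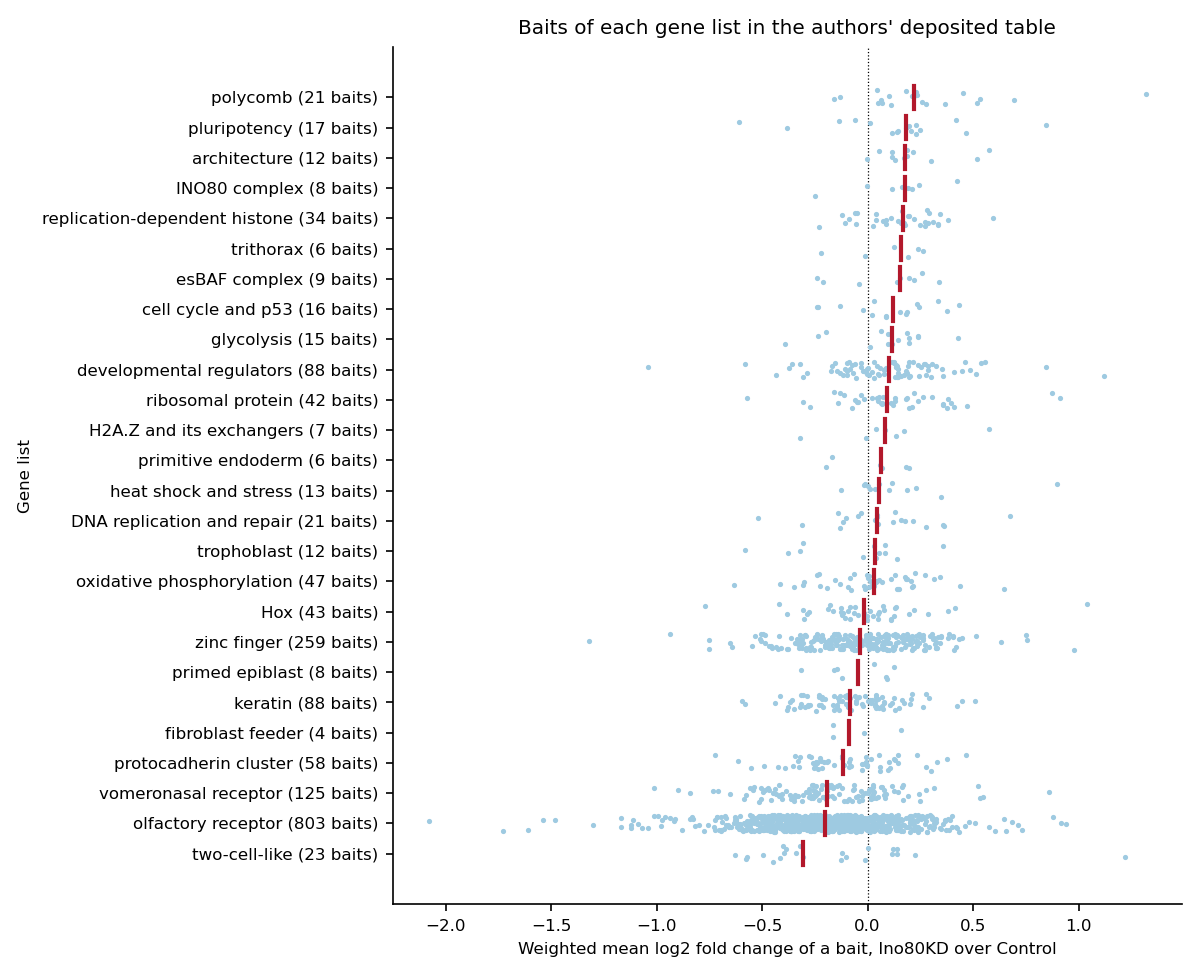
Weighted mean log2 fold change, Ino80KD over Control, of every bait of each gene list in the authors' deposited table. Dots are baits, spread vertically for visibility, and red bars are medians, from -0.31 for genes of the 2-cell-like state and -0.20 for odorant receptor genes to 0.22 for polycomb genes, with wide overlap between lists. The lowest place depends on the setting, since above the median signal the 2-cell-like list is at -0.096 and the odorant receptor list at -0.23.

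Single baits were compared by the number of loops listed. Of 15229 baits with a loop, 900 (5.91%) had more loops in both Ino80KD libraries than in either Control library and 1078 (7.08%) had fewer. Baits with more had medians of 25 genes in 1 Mb and 13 CG, those with fewer 20 genes and 8 CG, and all baits with a loop 18 genes and 13 CG. A share of 27.2% of the baits with fewer loops and 18.0% of those with more had 0 to 10 genes around them, against 28.1% of all.

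The baits with the widest gaps differed by several loops, and were chosen for that gap. Among those named here, the bait of Gjd3 holds another gene end and that of Arid3a lies inside the gene, so neither was named by a start site. Gjd3, a connexin gene, had 2 and 2 loops in Control and 8 and 7 in Ino80KD. Slc39a2, a zinc transporter gene, had 1 and 1 against 5 and 5. Apom, an apolipoprotein gene, had 2 and 5 against 9 and 8. At these 3 baits the Ino80KD libraries were close to each other and above both Control libraries. Arid3a, a DNA-binding factor gene, had 2 and 1 loops against 5 and 7, and Prtn3, a neutrophil protease gene near it on chromosome 10, had 4 and 2 against 7 and 7. Bcan, a brain proteoglycan gene, had 1 and 2 against 5 and 6. For the 10 baits with the widest gaps upwards the weighted means in the authors' deposited table ran from 0.21 ± 0.091 at Igsf8 to 1.32 ± 0.23 at Sfmbt2.

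Among baits with fewer loops, AY761185 had 7 and 9 in Control and 1 and 0 in Ino80KD. Ly9, a lymphocyte surface receptor gene, had 7 and 5 against 1 and 1. Slc5a9, a sugar transporter gene, had 7 and 9 against 3 and 3. At these baits both Ino80KD libraries were low. Cd207, which encodes langerin, had 14 and 17 loops against 11 and 9, and Zfp982 had 12 and 12 against 9 and 3, where the Ino80KD libraries lay far apart. Scgb2b3, a secretoglobin gene, had 7 and 6 against 1 and 2. The weighted means of 9 of these 10 baits were below 0 in the authors' deposited table, and Hpn was at 0.048 ± 0.11 there, with 5 and 7 loops against 2 and 1. The baits of Ly9, Slc5a9 and Hpn were named by another gene end and not by a start site. Among the baits with the most loops in all 4 lists, Dll1, a Notch ligand gene, had 13 and 14 against 13 and 13, and Hjurp, a centromere chaperone gene, had 12 and 24 against 13 and 18, both with overlap.

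**Figure D4:**
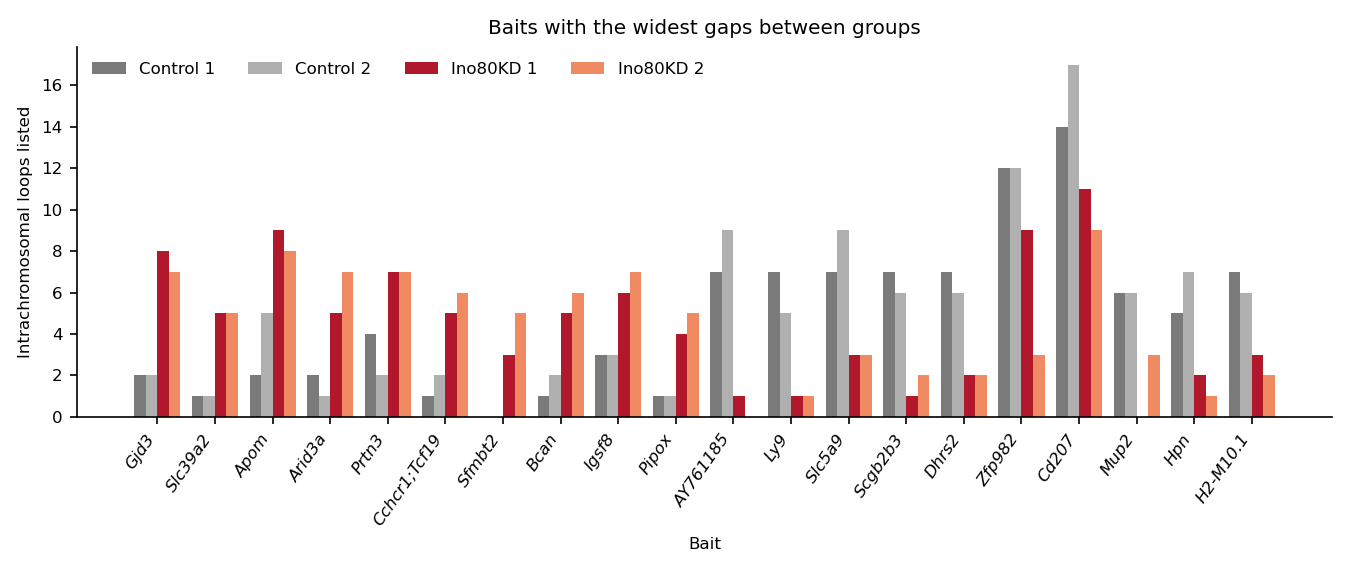
Intrachromosomal loops listed at the 10 named baits with the widest gap upwards and the 10 with the widest gap downwards, chosen by that gap. Bars are Control replicates 1 and 2 and Ino80KD replicates 1 and 2, for example 2, 2, 8 and 7 at Gjd3 and 7, 9, 1 and 0 at AY761185.

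The contacts with the lowest p-values are given with their listings, which come from the same reads. The bait of Bahd1 (chr2:118899257-118902116) met a region at 118676109 to 118761921 of chromosome 2 that holds Plcb2 and Pak6 among 4 genes, with 0.63 ± 0.20 (SE, unadjusted p = 0.00184, adjusted p = 1.00) in the authors' deposited table. All libraries listed loops there, 3 and 2 in Control and 3 and 3 in Ino80KD, with best scores of 8.91, 7.64, 12.01 and 10.5, each on its own list's scale. The bait of Sfmbt2 met the region of Gata3, 482 kb away, with 1.32 ± 0.44 in the authors' deposited table, and this contact was in neither Control list and in both Ino80KD lists, with 2 and 3 loops. Seen from 1 of 3 Gata3 baits, the contact had 1.22 ± 0.37 in the authors' deposited table and was listed in Ino80KD replicate 2 only. The mean signal behind both views was low, 33.9 and 49.4 against a median of 62.7 over all entries of the authors' deposited table. The 3 Gata3 baits had weighted means of -0.58, 0.36 and -0.30 there, and 0.14 ± 0.12 together. Their loops numbered 5 and 3 in Control and 2 and 5 in Ino80KD, with overlap.

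The other higher contacts spanned 14.5 to 220 kb. The bait of 4933428G20Rik (chr11:97499601-97501460) had no listed loop in Control and 2 and 2 in Ino80KD, with 0.64 ± 0.21 in the authors' deposited table. Nup98 and Pgap2, which share a bait (chr7:102209215-102211240) and encode a nuclear pore protein and a factor of lipid anchors, met a region holding Trpc2 and Rnf121 with 0.76 ± 0.27 in the authors' deposited table, with 0 and 1 loops in Control and 2 and 3 in Ino80KD. Spaca4, a sperm protein gene, met the region of Dbp, a circadian factor gene, with 0.67 ± 0.24 in the authors' deposited table, and 1 loop was listed in each library. Mnt, a MYC antagonist gene whose bait lies inside it, was at 0.65 ± 0.22, Csf3, a granulocyte growth factor gene, at 0.58 ± 0.21, Pcdh1, a protocadherin gene outside the clusters, at 0.50 ± 0.18 and Prtn3 at 0.53 ± 0.19 in the authors' deposited table. The baits of Csf3 and Pcdh1 were named by another gene end and not by a start site. Radil met the region of Papolb and Polrmt that of Hcn2, an ion channel gene, and each had 0 and 0 loops in Control and 1 and 1 in Ino80KD.

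The lower contacts were mostly short and in the neighbourhood of the bait. The baits of Tut4, Chd8 and Pou2f1 lie inside these genes, and those of Slc5a9 and Olfr995 hold another gene end. These baits were thus not named by a start site. Tut4, which encodes a uridylyltransferase of small RNAs, had a contact at 53.0 kb with -0.59 ± 0.21 (unadjusted p = 0.00425, adjusted p = 1.00) in the authors' deposited table, listed once in each Control library and in neither Ino80KD library. Dhrs2 met a region 60.3 kb away with -0.55 ± 0.20 in the authors' deposited table, with 2 and 1 loops in Control and 0 and 0 in Ino80KD, and over the whole bait 7 and 6 against 2 and 2. Chd8, a chromatin remodeller gene, met the region of Supt16, a histone chaperone gene, with -0.64 ± 0.25 in the authors' deposited table. That contact stayed listed, with best scores of 13.1 and 25.7 in Control and 10.6 and 9.67 in Ino80KD. Slc5a9 met a region 773 kb away at the Skint2 gene with -0.99 ± 0.39 in the authors' deposited table, and 5 and 5 loops against 2 and 2. Of the 12 lowest, Olfr1134, Olfr995, Olfr203 and Olfr988 are odorant receptor genes, at -0.55 ± 0.20, -1.23 ± 0.47, -0.83 ± 0.33 and -0.65 ± 0.26 in the authors' deposited table. Prl3c1, a prolactin family gene, was at -0.74 ± 0.27, Pou2f1, which encodes OCT1, at -0.58 ± 0.23 and Fmn2, a formin gene, at -0.66 ± 0.26 in the authors' deposited table.

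**Figure D5:**
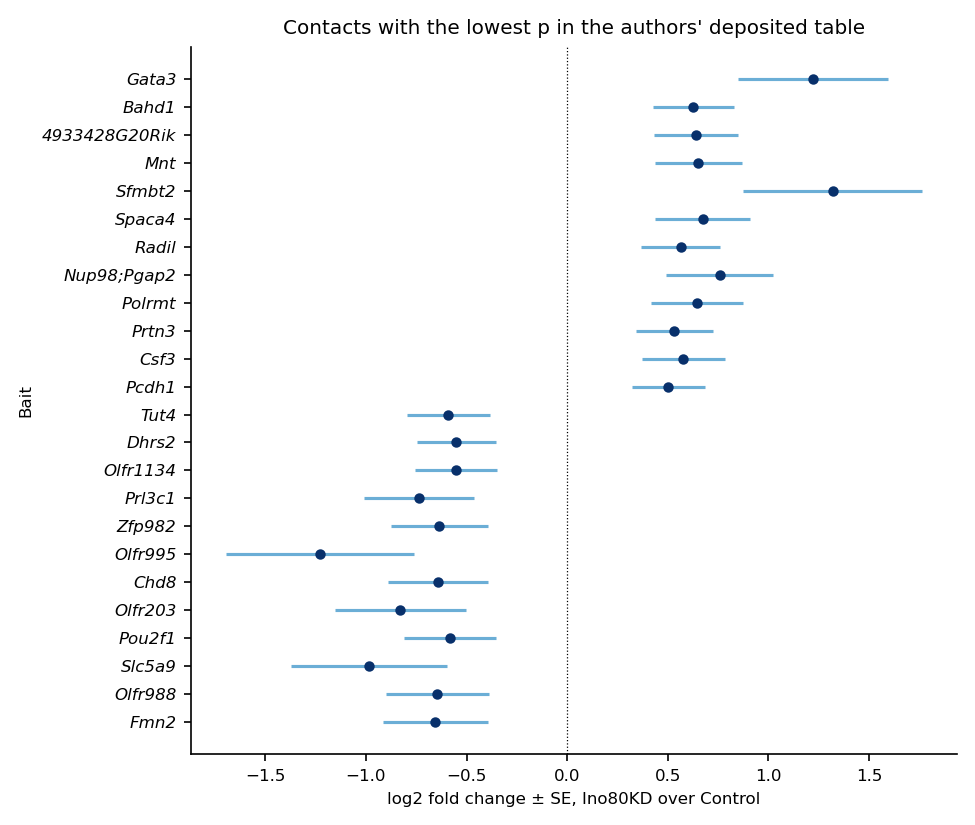
Log2 fold change with its SE, Ino80KD over Control, of the 12 higher and 12 lower contacts with the lowest unadjusted p in the authors' deposited table, 1 per named bait and chosen by that p. Values run from -1.23 at Olfr995 to 1.32 at Sfmbt2, and none passed the adjustment.

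The same contacts in Brg1KD, which was set against the same Control libraries, are given side by side with no comparison. There the authors' deposited table gave -0.19 ± 0.22 for Bahd1, 0.33 ± 0.23 for 4933428G20Rik, -0.11 ± 0.19 for Nup98 and Pgap2 and 0.074 ± 0.26 for Polrmt. Spaca4 was at -0.14 ± 0.27, Prtn3 at 0.30 ± 0.21 and Pcdh1 at 0.15 ± 0.18, and the other higher contacts had no value there. For the lower contacts the authors' deposited table of Brg1KD gave -0.31 ± 0.20 for Tut4, -0.089 ± 0.17 for Dhrs2, -0.43 ± 0.24 for Chd8 and -0.55 ± 0.27 for Fmn2. It gave -0.296 ± 0.19 for Olfr1134, -0.303 ± 0.405 for Olfr995, -0.154 ± 0.291 for Olfr203 and -0.125 ± 0.238 for Olfr988. Prl3c1 was at -0.329 ± 0.26, Zfp982 at -0.0631 ± 0.223 and Pou2f1 at -0.297 ± 0.21. Slc5a9 was at 0.0759 ± 0.336. These contacts were picked by their values against the same Control libraries, so a sign shared with Brg1KD is no separate evidence.

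The promoters of baits with an entry at an unadjusted p below 0.05 differed in composition between the directions. Such entries were 1.29% of all and none passed the adjustment, so no bait is called changed. The 4 printed windows were picked to span the range of CG numbers and do not show this difference. Among the named contacts, Spaca4 with 5 CG and Prtn3 with 4 CG were higher and Fmn2 with 17 CG was lower. The 145 baits with a start site and an entry higher with an unadjusted p below 0.05 in the authors' deposited table had a median of 18 CG and 61.7% G and C in the promoter window and of 35 genes in 1 Mb. The 55 with a lower entry in the authors' deposited table had 2 CG, 46.0% G and C and 25 genes, and all 8324 had 13 CG, 56.7% and 21 genes. The GC box GGGCGG, the core bound by SP and KLF factors, was found on either strand in 66.2% of the windows of higher baits, 30.9% of lower baits, 46.4% of all these baits and 35.7% of all 32851 promoters of the same length. It contains a CG, so its frequency overlaps with the CG number. The core AAGATGGC of YY1, searched on both strands, was in 4 of 145 windows of higher baits, 1 of 55 of lower baits and 3.00% of all baits, with 2.75% of all promoters. The CTCF core motif, searched on both strands, was in 10 of 145, 1 of 55 and 3.27%, with 2.44% of all promoters. A match is a run of letters and no measured binding site.

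Loops listed in 1 group only differed in surroundings between the groups, with the Control set unlike the loops found in all 4 lists. The sign of the fold changes was read from these same loops, and they come from the same reads. Their likeness to the orderings by gene density and CG number is therefore no separate result. Of the 14675 loops of Ino80KD replicate 1, 883 (6.02%) were also in the other Ino80KD list and in neither Control list, and of the 15322 of Control replicate 1, 984 (6.42%) were in both Control lists only. The Ino80KD set had a median span of 244 kb, 26 genes in 1 Mb and 13 CG, and the Control set 296 kb, 22 genes and 7 CG. Promoters with 0 to 3 CG made up 21.7% of the Ino80KD set with a start site and 36.9% of the Control set, and baits with 0 to 10 genes 16.4% and 25.7%. Loops found in all 4 lists, 4818 counted from Ino80KD replicate 1, had a shorter median span of 179 kb, with 26 genes and 12 CG. Promoters with 0 to 3 CG made up 19.9% of those with a start site, and baits with 0 to 10 genes 18.2% of them. In gene and CG numbers the Ino80KD set was thus close to the loops in all 4 lists, and the Control set was not. The median score of the loops in all 4 lists was 6.85, against 5.75 in the Ino80KD set and 5.87 in the Control set, so the loops of 1 group only lay near the minimum of 5.

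Interchromosomal loops were spread over many baits, and the 8 baits with the most held 10.3% and 9.86% of them in Control and 9.14% and 13.1% in Ino80KD. A bait inside Sfi1, a centrosome gene, on chromosome 11 (3186616 to 3190172) had 77 and 98 such loops in Control and 67 and 101 in Ino80KD, with overlap, and an unnamed bait of chromosome 17 had 44 and 30 against 41 and 67. Of 2801 baits with such a loop, 79 (2.82%) had more in both Ino80KD libraries and 103 (3.68%) fewer. Among the 8 with the most, Rogdi had 32 and 27 in Control against 20 and 22, Tshz2 25 and 27 against 19 and 21, and Haus7, an augmin subunit gene, 27 and 24 against 20 and 20. These were named after their values were seen.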

How the data were processed

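Loop lists, 1 per library, were deposited by the authors with 2 positions and a score of at least 5 per loop. They also deposited a comparison table whose columns are, per the file headers, a normalized mean signal, a log2 fold change with its SE, a statistic that is a score, and p-values before and after adjustment. Positions of the bait, the region and the distance between them are, per the file headers, the other columns used. Build mm10 and bedtools come from the submitters' processing notes, and no source used here gives the caller. No counts per library were used, so the design's count test was replaced by a description of the authors' table.

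Baits were named by RefSeq genes of GRCm38.p6: 9637 of 16424 by a start site, 2268 by another gene end, 701 by a gene end within 2 kb and 2526 by a gene around them, with 1292 unnamed. Lists use the first 3 kinds. Only baits with a promoter entry have a CG number. Loops were matched within 5 kb. Matching, weighting and the exact test were tested on simulated data. Analyses used Python 3.11.15, pandas 2.3.3, numpy 2.4.6 and scipy 1.17.1. Library values were compared by exact two-sided permutation tests, with smallest p 0.33. The named contacts are the 12 lowest p-values per direction, the named baits the 10 widest gaps in loops per direction, and list members up to 3 per direction by weighted mean over its error. Members and lists were chosen with earlier results of these data known. Replicate numbers were not used to pair the libraries in these tests, although both replicates 1 share batch 1.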

Additional observations from a re-analysis of the deposited data

How the results depend on the processing

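The ordering by gene density and CG number kept its sign under every alternative, all added after seeing the data: the median log2 fold change of the highest minus the lowest class in the authors' deposited table was 0.16 for gene density and 0.17 for CG, and ranged from 0.16 to 0.21 and from 0.12 to 0.17 over the other settings. Leaving out each library gave a ratio of 0.882 to 0.960 for the share of loops in the gene-poorest class, 1.03 to 1.10 in the gene-richest and 0.822 to 0.912 in the CG-poorest, 0.939 to 1.00 for intrachromosomal loops, 0.850 to 0.993 for interchromosomal loops, 0.868 to 0.978 for the median span, 1.08 to 1.40 for loops between baits and 0.782 to 0.921 for odorant receptor genes. Within batch 1 the ratio for interchromosomal loops turned to 1.03 and for loops between baits to 0.966, and odorant receptor genes were at 0.965. At a score of 7 or more the odorant receptor ratio was 0.731, and the loops in both Ino80KD or both Control libraries only numbered 257 and 280. Over all entries the odorant receptor median in the authors' deposited table was -0.17, and over entries above the median signal -0.23. Entries of the authors' deposited table with an unadjusted p below 0.01 were 36 higher and 10 lower, those with 1 entry per bait and its p multiplied by the number of entries 60 and 36, and lower entries with a signal above the median 71. The replicate block gave 0.969 for intrachromosomal loops. Differences in loops between replicates 1 and 2 of Control and of Ino80KD had r = 0.0023 over 15229 baits. Since the replicates 2 lie in different batches, this r cannot show whether the replicates 1, both of batch 1, are paired. Loops per 1000 changed side in 48 of 255 alternatives, in 15 of 26 lists that do not include the odorant and vomeronasal receptor, 2-cell-like, polycomb, pluripotency, histone or developmental lists, and list medians in the authors' deposited table in 9 of 128, in 5 lists: primed epiblast, primitive endoderm, protocadherin, trophoblast and zinc finger genes. The unknown depth and 2 libraries per group limit every value.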
